A study of Mus musculus with 2 samples.

Results

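The 36 genes described here encode the enzymes, membrane proteins and proton pump of the lysosome, and were taken by gene symbol out of 32285 genes counted. All 36 were present in the files. They comprise 9 proteases, 3 glycosidases, 4 genes of sphingolipid and sterol handling, 5 membrane proteins, 2 transcription factors and 13 genes of the vacuolar proton ATPase (V-ATPase), 6 of its cytosolic V1 sector and 7 of its membrane V0 sector and accessory proteins. The genes were listed by their known roles, with no threshold on a measured value, though earlier results of these data were known.

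The lysosome is the acidic organelle in which a cell breaks down what it has taken up or no longer needs. The V-ATPase burns ATP in its V1 sector to drive protons through its V0 sector, and the acid activates cathepsins, glycosidases and lipases. TFEB, TFE3 and their relatives MITF and TFEC are transcription factors that bind E-boxes near the start of many lysosomal genes. In phagocytes the same enzymes digest engulfed cells and cut antigens for presentation, and cathepsins S and L act on the invariant chain of MHC class II.

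The cells came from subcutaneous tumours of B16-F10, a transplantable mouse melanoma line. The first group were tumours of DGAT1-knockout (KO) B16-F10 cells, which lack an enzyme that makes triglyceride, and the second were tumours of WT B16-F10 cells. In both, tumours were collected on day 14 after injection, 3 per group, and living CD45+ cells, the immune cells, were sorted for droplet RNA sequencing. The genotype is that of the injected melanoma cells, so "KO" and "WT" before an immune cell type name the tumours it came from. The labels name no mouse strain, age or clone and no treatment of the hosts. Each group is 1 library in which the tumours' cells are not told apart. The groups were therefore not tested against each other, and every difference below describes these 2 libraries with no replicate check.

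The KO library held 202946827 UMIs (unique molecular identifiers, counted transcripts) and the WT library 235652476. After filtering, 10955 KO and 9069 WT cells remained, with medians of 10758 and 14063 UMIs per cell, and 27 cell barcodes occurred in both libraries. Cells were put into classes by fixed marker genes, and the 10 classes that held 100 or more cells of both libraries were set against each other. The largest were macrophages, gated on C1qa, C1qb and C1qc (2020 KO and 3189 WT cells), CD8 T cells (2411 and 1721), monocytes, gated on Ly6c2, Ccr2 and related genes (1970 and 898), and phagocytes gated on Inhba, Slc7a2 and Egln3, called Inhba phagocytes here (657 and 213). The other 6 were natural killer (NK) cells, non-classical monocytes, mature dendritic cells, neutrophils, cDC1 dendritic cells and phagocytes of no other gate, with 208 to 521 KO and 108 to 233 WT cells. Ptprc, which encodes CD45, was counted in 80.4% to 100% of the cells of each of these classes in both libraries. Levels are in CPM, a gene's UMIs per 1000000 UMIs of its class. They are not scaled by transcript length. Ratios are log2 of KO over WT CPM for genes with at least 50 UMIs over both libraries in the class, and a difference of at least 1.5-fold is called higher or lower. The 95% intervals given with levels (exact Poisson) and ratios (exact binomial) reflect counting error and nothing else. The few melanoma cells in the sort had Dgat1 at 16.4 CPM in the KO library (12.8 to 20.7, 50 cells) and 28.4 CPM in the WT library (25.1 to 32.1, 137 cells), where the position of the edit relative to the counted reads was not analysed.

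The E-box core CACGTG is shown first because factors of the TFEB family bind it and several members' promoters hold it. RefSeq promoter windows, 250 bases before to 50 after a transcript's start on GRCm38.p6, were matched for 29 of the 36 members. The core lay in a window of 10 of these 29 (34.5%), against 8.09% of 27025 genes with a window. The longer palindrome TCACGTGA, which contains the core, lay in 5 of 29 (17.2%), against 1.12% of all genes. The PU.1 motif GAGGAAGT, searched on both strands because PU.1 is a myeloid factor, lay in 1 of 29 (3.45%), against 3.69% of all genes. The core without the longer form also lay in windows of Glb1, Gaa and Atp6v0b, which were within 1.5-fold in each class in which they were measured. The windows of Cd63, Cd68, Ctsk, Npc2 and Grn, each lower in at least 1 class, held no core. Ctsb had no matched window. The 5 stretches with TCACGTGA and the cores in the windows of Ctsl and Lgmn, both proteases that were lower in several KO classes, are printed 5′ to 3′ on the gene's strand with the match in capitals.
Ctsa, chr2:164833744-164833800, plus strand: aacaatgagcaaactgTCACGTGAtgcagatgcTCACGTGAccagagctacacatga
Ctsd, chr7:142387903-142388077, minus strand: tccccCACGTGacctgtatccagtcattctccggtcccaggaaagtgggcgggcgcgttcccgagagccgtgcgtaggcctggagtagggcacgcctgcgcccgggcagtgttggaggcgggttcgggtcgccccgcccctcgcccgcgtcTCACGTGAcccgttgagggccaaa
Mcoln1, chr8:3500431-3500496, plus strand: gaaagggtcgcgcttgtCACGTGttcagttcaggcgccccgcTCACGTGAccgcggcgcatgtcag
Atp6v0d1, chr8:105566045-105566084, minus strand: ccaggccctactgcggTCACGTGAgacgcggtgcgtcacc
Atp6v1a, chr16:44139368-44139407, minus strand: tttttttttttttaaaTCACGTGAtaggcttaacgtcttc
Ctsl, chr13:64370734-64370770, minus strand: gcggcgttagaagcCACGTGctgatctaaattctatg
Lgmn, chr12:102439119-102439158, minus strand: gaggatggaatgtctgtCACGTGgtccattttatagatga
Distances are from the RefSeq starts of these windows. The match began 99 bases before the start of Ctsd for the longer form, 132 before Atp6v1a, 46 before Mcoln1 and 4 before Atp6v0d1, while the cores began 236 bases before the start of Ctsl and 49 before one of the starts of Lgmn. GENCODE begins several of these genes farther upstream. The stretches shown for Ctsl, Lgmn, Atp6v1a and Ctsa therefore lie inside the gene as that annotation draws it. The same holds for the longer match of Ctsd and that of Mcoln1. The core and TCACGTGA are palindromes, so either strand gives the same match. In macrophages the median log2 ratio of KO over WT was -0.23 over the 10 members with the core and -0.08 over the 19 without, in monocytes it was -0.27 and -0.16, and in Inhba phagocytes -0.28 and -0.21. For TCACGTGA, over 5 members with it and 24 without, it was -0.19 and -0.13 in macrophages and -0.26 and -0.21 in monocytes, but -0.185 and -0.23, the other order, in Inhba phagocytes. A match is a description of letters and not a binding site.

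Across classes, most members were higher in macrophages than in CD8 T cells in both libraries. Summed over the 36 genes, macrophages held 20230 CPM in the KO library and 22825 CPM in the WT library, while CD8 T cells held 2240 and 2558 CPM. Between macrophages and CD8 T cells of the same library, 32 of 36 members were at least 2-fold higher in KO macrophages and 33 in WT macrophages, against 22.3% and 23.2% of all genes. None was 2-fold lower, where 23.7% and 21% of all genes were. The order did not hold for each member and phagocyte class. Ctsd in KO CD8 T cells (424 CPM) lay above KO monocytes (329 CPM), and Glb1 had its highest KO level in NK cells (49.4 CPM), with a counting interval that overlapped that of macrophages (46.2 CPM). Against monocytes the gap was narrower, with 6 members at least 2-fold higher in KO macrophages and 5 in WT macrophages (8.51% and 11.2% of all genes). No member was 2-fold lower in macrophages than in monocytes in either library, where 4.82% and 6.67% of all genes were. Cd63, a tetraspanin of late endosomes and secretory granules, stood 2.60 above monocytes on the log2 scale in the KO library and 2.09 in the WT library. Atp6v0d2, a V0 subunit best known from osteoclasts and macrophages, stood 2.91 and 1.59 above them. Ctsd (1.62 and 1.11), Ctsb (1.33 and 0.92) and Lgmn (1.19 and 0.89) all had a wider gap in the KO library, whereas Grn, the gene of progranulin, had 1.25 and 1.24, and Hexa had the narrower gap there, 0.93 and 1.10.

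**Figure D1:**
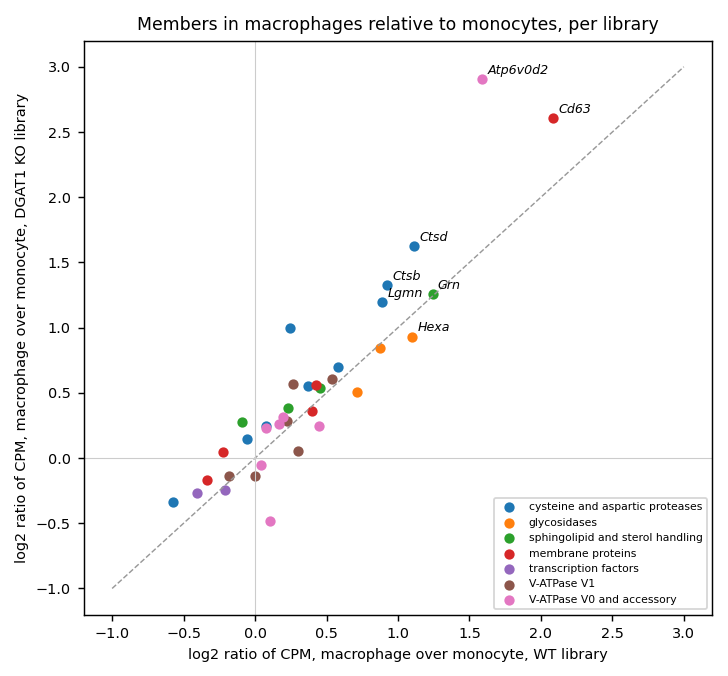
Each point is 1 of the 36 members, with the log2 ratio of its CPM in macrophages over monocytes in the KO library on the vertical axis and in the WT library on the horizontal axis, coloured by role. The dashed line marks equal ratios, and Atp6v0d2, Cd63, Ctsd, Ctsb and Lgmn lie above it.

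The classes with the highest level differed by member. In both libraries Ctsb, Lgmn, Hexa and Grn were highest in macrophages, and Npc2, Ctsl, Ctsk and Atp6v1c1 in Inhba phagocytes, although the counting intervals of Ctsk in KO Inhba phagocytes and other phagocytes overlapped. Npc2, which hands cholesterol to NPC1 inside the lysosome, had 2271 CPM in KO cells and 2836 CPM in WT cells in Inhba phagocytes. Atp6v0a1 and Ctsh were highest in mature dendritic cells, although in the WT library the counting intervals of Ctsh in mature dendritic cells and Inhba phagocytes overlapped. Neutrophils had the highest Atp6v0d1, 202 CPM in KO cells and 263 CPM in WT cells. Within macrophages the 3 members with the most UMIs were Psap (3031 CPM in KO cells and 3036 CPM in WT cells), Ctsb (2773 CPM in KO cells and 3637 CPM in WT cells) and Ctss (2552 CPM in KO cells and 2418 CPM in WT cells).

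Between the libraries, several proteases and a few membrane proteins were lower in KO phagocytes, whereas most V-ATPase genes were within 1.5-fold of their WT level. Of 341 member ratios measured over the 10 classes, 41 were at least 1.5-fold lower in the KO library and 8 at least 1.5-fold higher. Depending on the class, 3.8% to 8.85% of all genes were lower and 3.25% to 10.9% higher. For 10 of these 49 called ratios, free RNA was estimated at 25% or above, judged in whichever library had the higher level. The 41 belonged to 13 members and the 8 to 4 members, and 21 members were within 1.5-fold in each compared class in which they reached 50 UMIs. In monocytes 7 of 36 members were lower and 1 was higher, where 4.5% of all genes were lower and 6.29% higher. In Inhba phagocytes 4 of 36 were lower and 1 higher (all genes, 4.14% and 10.5%). In macrophages 1 of 36 was lower and none higher (all genes, 6.85% and 7.52%), so the macrophage count was below the background share in both directions. It turned on few members, among them Ctsk and Atp6v0d2, both close to the limit. Under the alternative settings tried it was 0 to 2 lower and 0 or 1 higher. The median log2 ratio of the members was -0.22 in monocytes, -0.22 in Inhba phagocytes and -0.13 in macrophages, against medians over all genes of 0.07, 0.07 and -0.01. In the remaining classes it ranged from -0.34 in other phagocytes to 0.06 in neutrophils.

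**Figure D2:**
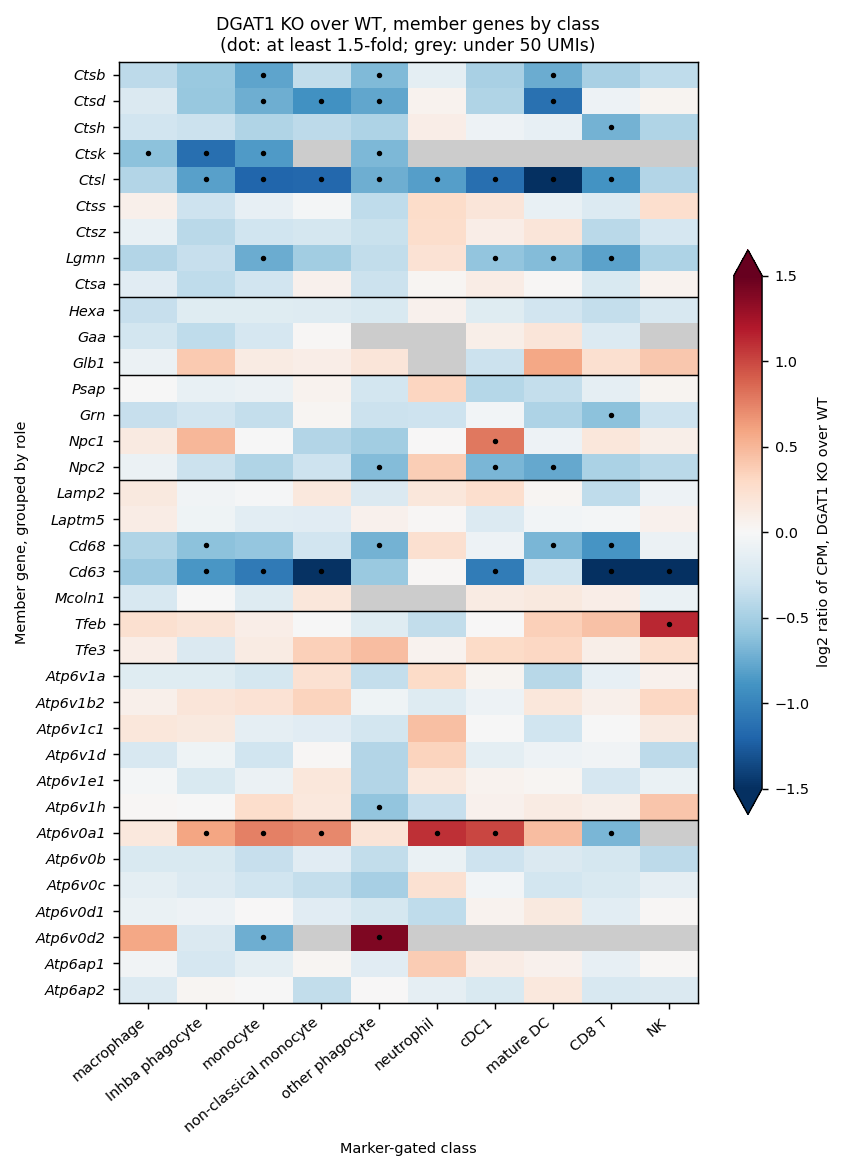
Each cell is the log2 ratio of CPM, KO over WT, of 1 member (rows, grouped by role) in 1 class (columns); blue is lower and red higher in the KO library, a dot marks at least 1.5-fold, and grey marks under 50 UMIs. Ctsl is blue in 10 of 10 classes, and Atp6v0a1 is red in 8 of the 9 classes in which it was measured.

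Values that moved with these differences were as follows. Macrophages had a median of 15339 UMIs per cell in the KO library and 19763 in the WT library, and monocytes 8602 and 10057.5. The 3 C1q genes summed to 5861 CPM in KO macrophages and 8697 CPM in WT macrophages, and to 101 and 156 CPM in monocytes. All 5 melanoma genes listed (Pmel, Mlana, Dct, Tyr and Tyrp1) were detected in every compared class. Their sum ranged from 22.1 to 85.6 CPM over the KO classes and from 77.8 to 339.9 CPM over the WT classes. The part of depth, of the gates and of melanoma RNA in the member ratios was not tested.

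The cathepsins are the lysosome's main proteases, and among them Ctsl, cathepsin L, differed in the most classes. Ctsl (chromosome 13, 64359337 to 64370890, minus strand, mm10) had 231 CPM in KO cells and 526 CPM in WT cells in monocytes, with counting intervals of 224 to 238 and 512 to 541. The log2 ratio was -1.19 (-1.25 to -1.13), and 44.6% and 63.3% of monocytes held at least 1 Ctsl UMI. In Inhba phagocytes it had 502 CPM in KO cells and 881 CPM in WT cells (-0.81, -0.89 to -0.73). Other phagocytes had 459.8 CPM in KO cells and 766 CPM in WT cells, non-classical monocytes 48.8 CPM in KO cells and 109.9 CPM in WT cells, and neutrophils 132 CPM in KO cells and 235 CPM in WT cells, with log2 ratios of -0.74, -1.17 and -0.83. The level in the KO library was the lower one in all 10 classes compared, and it was at least 1.5-fold lower in 8 of them. The other 2 were macrophages, with 461 CPM in KO cells and 624 CPM in WT cells (-0.44, -0.46 to -0.41), and NK cells, where the interval of the ratio spanned 0.

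Ctsb, Ctsd and Lgmn were lower in KO monocytes to a similar extent. Ctsb, cathepsin B (chromosome 14, 63122462 to 63145923, plus strand), had 1106 CPM in KO cells and 1916 CPM in WT cells in monocytes (-0.79, -0.82 to -0.76), and Ctsd, the aspartic protease cathepsin D, had 329 CPM in KO cells and 547 CPM in WT cells (-0.73, -0.79 to -0.68). Lgmn, or legumain, which cuts after asparagine and matures other cathepsins, had 556 CPM in KO cells and 931 CPM in WT cells (-0.74, -0.78 to -0.70). In macrophages the same 3 genes stayed within 1.5-fold, at log2 ratios of -0.39, -0.22 and -0.44. Inhba phagocytes had 2154 CPM in KO cells and 3159 CPM in WT cells for Ctsb (-0.55) and 554 against 819.9 CPM in the KO and WT libraries for Ctsd (-0.57), just inside the 1.5-fold limit. Ctsb was below its WT level in 10 of 10 classes.

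Ctsk, cathepsin K, a collagen-cutting enzyme of osteoclasts, was counted in few cells and was lower in all 4 classes in which it reached 50 UMIs. Inhba phagocytes had 40.4 CPM in KO cells and 88.4 CPM in WT cells (-1.13, -1.39 to -0.87), from 285 and 218 UMIs in KO and WT cells. Monocytes had 10.3 CPM in KO cells and 18.6 CPM in WT cells (-0.85, -1.15 to -0.54) and macrophages 8.19 CPM in KO cells and 12.5 CPM in WT cells (-0.61, -0.80 to -0.42), the only member lower by 1.5-fold in macrophages. Other phagocytes had 28.1 CPM in KO cells and 44.7 CPM in WT cells (-0.67) from 41 and 47 UMIs. Within subgates split by Arg1, described below, Ctsk was not lower throughout. Its ratio was 0.11 (-0.28 to 0.51) in Arg1 monocytes, from 135 and 94 UMIs. It was -0.21 (-0.64 to 0.20) in macrophages without Arg1, where 10 cells held 92.3% of the KO and 61.4% of the WT UMIs. In Arg1 macrophages it was -1.12 and in cycling macrophages -0.995.

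Ctss, Ctsz and Ctsa stood apart from these proteases, with no class in which they differed by 1.5-fold. Ctss, cathepsin S, which trims the invariant chain in antigen-presenting cells, had 2552 CPM in KO cells and 2418 CPM in WT cells in macrophages (0.08) and 2311 CPM in KO cells and 2514 CPM in WT cells in monocytes (-0.12). Its level in cDC1 was 882 CPM in KO cells and 779 CPM in WT cells (0.18). Ctsz had log2 ratios of -0.41 in CD8 T cells to 0.27 in neutrophils, and Ctsa, the protective protein of beta-galactosidase and neuraminidase, of -0.38 in Inhba phagocytes to 0.12 in cDC1. Ctsh was lower in KO monocytes by less than 1.5-fold (338 CPM in KO cells and 463 CPM in WT cells, -0.46). Over the 9 proteases the median log2 ratio was -0.73 in monocytes, with 5 of 9 lower, -0.41 in Inhba phagocytes with 2 of 9, -0.28 in macrophages with 1 of 9, and 0.08 in neutrophils with 1 of 8 measured. Of all genes, 4.5% were lower in monocytes, 4.14% in Inhba phagocytes, 6.85% in macrophages and 8.85% in neutrophils.

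**Figure D3:**
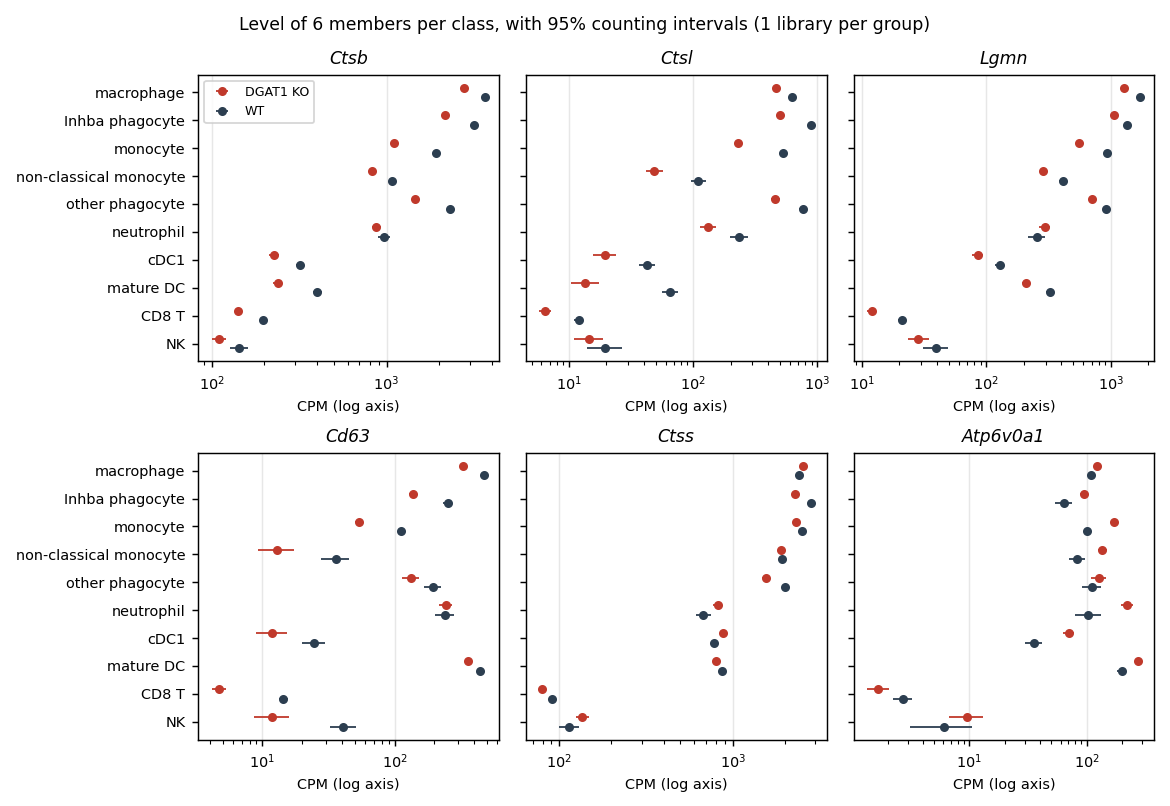
CPM (log axis) of 6 members in the 10 compared classes, KO in red above WT in dark blue, 1 library per group; bars are exact 95% counting intervals. Ctsl, Ctsb, Lgmn and Cd63 lie lower in the KO library in most classes, Ctss is near its WT level, and Atp6v0a1 lies higher in monocytes, neutrophils and cDC1.

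The glycosidases differed little. Hexa, the alpha chain of beta-hexosaminidase, had 238 CPM in KO cells and 303 CPM in WT cells in macrophages (-0.35, -0.39 to -0.31), and Gaa, the acid alpha-glucosidase that clears glycogen, had 25.1 against 30.4 CPM in the KO and WT libraries (-0.28). Glb1, beta-galactosidase, was above its WT level in 7 of 9 classes, with the largest ratio in mature dendritic cells (24.4 CPM in KO cells and 16.3 CPM in WT cells, 0.58, 0.06 to 1.11). All 3 genes were within 1.5-fold in each compared class in which they were measured.

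Among the sphingolipid and sterol genes, Npc2 was lower and Npc1 was not. Npc2 (chromosome 12, 84754562 to 84773152, minus strand) had 767 CPM in KO cells and 1310.3 CPM in WT cells in mature dendritic cells (-0.77, -0.84 to -0.70) and 391 CPM in KO cells and 632 CPM in WT cells in cDC1 (-0.69, -0.78 to -0.60). It was also lower in other phagocytes (-0.65, but 0.07 in the cells above the UMI threshold) and differed by less in monocytes (-0.45) and macrophages (-0.08). Npc1, the membrane cholesterol transporter that works with NPC2, had 29.3 CPM in KO cells and 16.9 CPM in WT cells in cDC1 (0.79, 0.36 to 1.23), from 136 and 69 UMIs, though -0.11 with the gates as first written, and 138 CPM in KO cells and 97.8 CPM in WT cells in Inhba phagocytes (0.50). Psap, the precursor of the saposins that help degrade sphingolipids, differed most in cDC1, with 2271 CPM in KO cells and 3059 CPM in WT cells (-0.43), and had a ratio near 0 in macrophages. Grn had 958 CPM in KO cells and 1218 CPM in WT cells in macrophages (-0.35).

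Of the membrane proteins, Cd63 and Cd68 were lower in KO phagocytes and Lamp2 and Laptm5 were near their WT level. Cd63 (chromosome 10, 128900989 to 128912822, plus strand) had 53.9 CPM in KO cells and 113 CPM in WT cells in monocytes (-1.06, -1.19 to -0.94) and 138 CPM in KO cells and 252 CPM in WT cells in Inhba phagocytes (-0.87, -1.01 to -0.72). Macrophages had 328 CPM in KO cells and 478 CPM in WT cells (-0.55), within 1.5-fold. The melanoma cells in the sort held 1256 and 1599 CPM of Cd63, and free RNA made up an estimated 15.0% and 19.4% of its UMIs in KO and WT monocytes. The part of melanoma RNA in the Cd63 ratios was not tested; in macrophages the free RNA shares were 1.29% and 2.15%.

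Cd68, macrosialin, a glycoprotein of phagocyte lysosomes, had 613 CPM in KO cells and 943 CPM in WT cells in Inhba phagocytes (-0.62, -0.69 to -0.55). Monocytes had 412 CPM in KO cells and 614 CPM in WT cells (-0.58) and macrophages 606 CPM in KO cells and 827 CPM in WT cells (-0.45), both within 1.5-fold. Lamp2, a main structural protein of the lysosomal membrane, ranged from -0.38 in CD8 T cells to 0.25 in cDC1, and had 445 CPM in KO cells and 451 CPM in WT cells in monocytes. Laptm5, a lysosomal membrane protein of blood cells, had 417 CPM in KO cells and 427 CPM in WT cells in CD8 T cells and ratios of -0.21 to 0.11. Mcoln1, the calcium channel mucolipin, was counted at 12.4 CPM in KO cells and 14.5 CPM in WT cells in macrophages and was within 1.5-fold in the 8 classes in which it was measured.

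The 2 transcription factors were not lower in any class by 1.5-fold. Tfeb had 58.1 CPM in KO cells and 49.3 CPM in WT cells in macrophages (0.24, 0.16 to 0.32) and 70.0 CPM in KO cells and 65.4 CPM in WT cells in monocytes (0.10, -0.04 to 0.24). It was higher in KO NK cells at 71.8 CPM in KO cells and 32.8 CPM in WT cells (1.13, 0.73 to 1.54), from 272 and 65 UMIs, where 7.8% of all genes were higher and 3.8% lower; with the gates as first written the ratio was 0.51. Tfeb was above its WT level in 7 of 10 classes and Tfe3 in 9 of 10, with Tfe3 at 44.0 CPM in KO cells and 41.1 CPM in WT cells in macrophages (0.10).

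The V1 sector, which hydrolyses ATP, had medians nearer to that of all genes than the proteases had in the larger classes. Its 6 genes had a median log2 ratio of -0.01 in macrophages, -0.03 in Inhba phagocytes, -0.11 in monocytes and -0.03 in CD8 T cells. The medians over all genes were -0.01, 0.07, 0.07 and 0.06. In other phagocytes the V1 median was -0.40 (all genes, 0.04). The catalytic subunit Atp6v1a had 239 CPM in KO cells and 272 CPM in WT cells in macrophages (-0.19) and 157 CPM in KO cells and 188 CPM in WT cells in monocytes (-0.26), while the subunit Atp6v1b2 had 243 CPM in KO cells and 209.6 CPM in WT cells in monocytes (0.22). Atp6v1c1, Atp6v1d and Atp6v1e1 were within 1.5-fold in all 10 classes. Of the V1 genes only Atp6v1h passed 1.5-fold, in other phagocytes (106 CPM in KO cells and 159 CPM in WT cells, -0.59, -0.91 to -0.26), and its ratio there was 0.05 in the 42 KO and 12 WT cells above the UMI threshold.

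Atp6v0a1, one of the alternative a subunits of the V0 sector, was the member most often higher in the KO library. It lies on chromosome 11 from 101009452 to 101063719 (plus strand). Monocytes had 171 CPM in KO cells and 101 CPM in WT cells (0.75, 0.65 to 0.86), neutrophils 221 CPM in KO cells and 104 CPM in WT cells (1.09, 0.70 to 1.504) and cDC1 70.6 CPM in KO cells and 35.3 CPM in WT cells (1.001, 0.71 to 1.29). Non-classical monocytes had 137 CPM in KO cells and 83.1 CPM in WT cells (0.72) and Inhba phagocytes 95.7 CPM in KO cells and 63.7 CPM in WT cells (0.59). The last lay at the limit and was 0.25 with only the barcodes above the UMI threshold and 0.46 with stricter gates. It was within 1.5-fold in macrophages (122 CPM in KO cells and 109 CPM in WT cells, 0.16), mature dendritic cells and other phagocytes. In CD8 T cells, where it had 91 and 113 UMIs and free RNA made up an estimated 84.3% and 43.5% of them, the ratio was -0.69, but 0.08 when cells marked as doublets were kept.

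The other V0 genes had smaller ratios. Atp6v0b was below its WT level in 10 of 10 classes but never by 1.5-fold, with 244 CPM in KO cells and 286 CPM in WT cells in macrophages (-0.23). Atp6v0c, which forms the proton-carrying ring, had 1810.3 CPM in KO cells and 1542 CPM in WT cells in neutrophils (0.23) and 1348 CPM in KO cells and 1555 CPM in WT cells in Inhba phagocytes (-0.21). Atp6v0d2 had 49.7 CPM in KO cells and 33.1 CPM in WT cells in macrophages (0.58, 0.50 to 0.67), just under the 1.5-fold limit, and was lower in KO monocytes, where few UMIs were counted (122 and 105 UMIs, -0.73, -1.12 to -0.34). In other phagocytes it was higher (44 and 12 UMIs, 1.40), with 90.9% of the KO UMIs and 100% of the WT UMIs in 10 cells. Its widely expressed relative Atp6v0d1 was within 1.5-fold in all 10 classes, as were the accessory proteins Atp6ap1 and Atp6ap2.

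When macrophages and monocytes were split, more members were lower by 1.5-fold in the cells without Arg1, the arginase gene, than in those with it. Cells with Mki67 or Top2a made up 37.1% of KO and 50.2% of WT macrophages, cells with at least 2 UMIs of Arg1 and neither cycle gene 29.6% and 23.7%, and the rest 33.3% and 26.2%. In the rest, 6 of 36 members were lower, where 6.17% of all genes were lower and 9.72% higher. Ctsb had 2083 CPM in KO cells and 3437 CPM in WT cells there (-0.72, -0.75 to -0.70), Cd63 225 CPM in KO cells and 446 CPM in WT cells (-0.99, -1.06 to -0.92) and Ctsl 224 CPM in KO cells and 395 CPM in WT cells (-0.82, -0.89 to -0.75), and Ctsd, Lgmn and Cd68 were lower as well. In Arg1 macrophages 2 members were lower, Ctsl (934 CPM in KO cells and 1464 CPM in WT cells, -0.65, -0.68 to -0.61) and Ctsk (18.01 against 39.1 CPM in the KO and WT libraries, -1.12), where 4.07% of all genes were lower and, with no member higher, 4.99% were higher. In cycling macrophages Ctsk was lower (2.75 against 5.48 CPM, -0.995) and Atp6v0d2 higher (43.5 against 24.4 CPM, 0.84), with 5.06% of all genes lower and 6.74% higher.

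In monocytes without Arg1, 6 members were lower (4.39% of all genes) and Atp6v0a1 was higher (0.78, 5.69% of all genes), with Ctsb at 775 CPM in KO cells and 1306 CPM in WT cells (-0.75) and Cd63 at 34.6 CPM in KO cells and 80.1 CPM in WT cells (-1.21), of which free RNA made up an estimated 23.8% and 28.3%. In Arg1 monocytes, 17.6% of KO and 25.1% of WT monocytes, 2 were lower (3.18% of all genes) and Atp6v0a1 was higher (0.59, 10.5%), with Ctsl at 787 CPM in KO cells and 1357 CPM in WT cells (-0.79). The members' median log2 ratio was alike, -0.17 in monocytes without Arg1 and -0.16 in Arg1 monocytes (all genes, 0.06 and 0.10). Within either library Ctsl was higher in Arg1 macrophages than in macrophages without Arg1, by 2.06 on the log2 scale in the KO library and 1.89 in the WT library. Ctss had a ratio of 0.03 in macrophages without Arg1 and -0.10 in monocytes without Arg1. Whether the differences between these subgates exceed those between tumours was not tested.

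**Figure D4:**
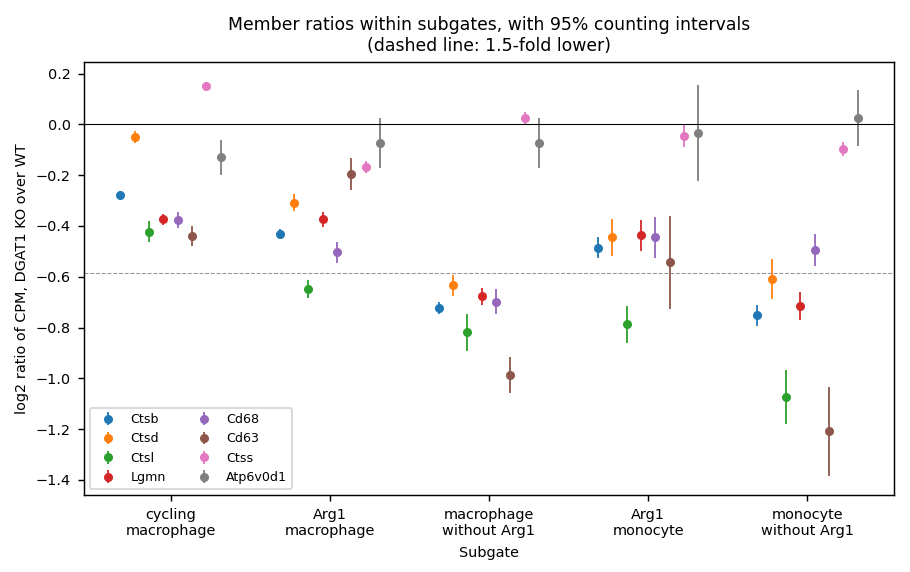
Log2 ratio of CPM, KO over WT, of 8 members in 3 macrophage and 2 monocyte subgates, with exact 95% counting intervals; the dashed line marks 1.5-fold lower. Ctsb, Ctsd, Ctsl, Lgmn and Cd63 lie lowest in the subgates without Arg1, and Ctss and Atp6v0d1 lie near 0.

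Dendritic cells and neutrophils had fewer cells. In mature dendritic cells 6 of 34 measured members were lower and none higher (all genes, 4.96% lower and 7.42% higher). Ctsl had 13.5 CPM in KO cells and 65.0 CPM in WT cells (-2.27, -2.71 to -1.84), but 84.9% of the WT UMIs lay in 10 cells and free RNA made up an estimated 42.3% and 16.1% of the KO and WT UMIs. Ctsd had 60.9 CPM in KO cells and 132 CPM in WT cells (-1.11, -1.35 to -0.88), with free RNA at an estimated 30.1% and 22.4%, but a ratio of 0.04 with 1 UMI more required per gate marker, and Ctsb had 239 CPM in KO cells and 401 CPM in WT cells (-0.74, -0.87 to -0.62). Lgmn (-0.65) and Cd68 (-0.69) were the others besides Npc2. In cDC1 4 of 34 were lower and 2 higher (all genes, 3.81% and 9.2%), among them Ctsl at 19.6 CPM in KO cells and 42.8 CPM in WT cells (-1.13, -1.51 to -0.76), Lgmn (-0.59) and Cd63 (-1.05), the last with free RNA at 28.7% and 43.3%. In neutrophils 1 of 31 was lower, Ctsl, and 1 higher, Atp6v0a1 (all genes, 8.85% and 9.32%). In non-classical monocytes 3 of 34 were lower and 1 higher (all genes, 7.71% and 8.7%), with Ctsd at 105 CPM in KO cells and 197 CPM in WT cells (-0.90, free RNA 30.2% and 21.6%) and Cd63 at 12.8 against 35.8 CPM in the KO and WT libraries, mostly within the estimate of free RNA (67.6% and 60.2%). In other phagocytes 7 of 34 were lower and 1 higher (all genes, 8.09% and 10.9%), led by Ctsl, Ctsd (-0.78), Cd68 (-0.71) and Ctsb (-0.66).

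In lymphocytes, the members that were lower had a large estimated share of free RNA, transcripts released from broken cells that enter every droplet. Free RNA made up an estimated 2.07% of the UMIs of KO CD8 T cells and 2.12% of those of WT CD8 T cells. In CD8 T cells 7 of 34 measured members were lower and none higher (all genes, 6.9% and 3.25%), and 2 were lower when cells marked as doublets were kept. Cd63 had 4.67 CPM in KO cells and 14.4 CPM in WT cells (-1.62) with free RNA at an estimated 71.6% and 66.2% of its UMIs. The shares were 59.5% and 55.7% for Ctsl (-0.90), 68.9% and 64.7% for Cd68 (-0.89), 74.4% and 73.2% for Lgmn (-0.80), 92.5% and 80.9% for Ctsh (-0.71) and 39.1% and 43.9% for Grn (-0.62). In NK cells 1 of 32 measured members was lower and 1, Tfeb, higher (all genes, 3.8% and 7.8%). Cd63 was the lower one at 11.9 CPM in KO cells and 40.9 CPM in WT cells (-1.78), with free RNA at 87.7% and 66.9%. The free RNA held less of these genes in the KO library, with Ctsb at 1003 CPM in KO and 1703 CPM in WT free RNA, Ctsl at 185 and 316 CPM and Cd63 at 162 and 451 CPM. With the estimate subtracted, 47 of the called ratios of all classes could be computed again. Of these, 45 stayed at least 1.5-fold and 0 reversed. This count pools all classes, and only 10 of the 49 called ratios had 25% or more free RNA in the higher library. It therefore cannot decide the lymphocyte ratios. Where free RNA made up most of a member's UMIs, the ratio after subtraction rests on the remainder that the estimate leaves. The members' median in NK cells was -0.08 as reported and 0.13 after the subtraction. The part of free RNA in the lymphocyte ratios was not tested further. The remaining 27 measured members were within 1.5-fold in CD8 T cells. Several with a smaller free RNA share still lay below their WT level, among them Npc2 (187 CPM in KO cells and 261 CPM in WT cells, -0.48, free RNA 7.15% and 6.72%), Ctsb (-0.48, 14.7% and 18.3%) and Lamp2 (-0.38, 10.1% and 7.42%). Ctsd, at 424 CPM in KO cells and 448 CPM in WT cells in CD8 T cells, had a ratio of -0.08 and a free RNA share of 2.90% and 4.21%, Laptm5 one of -0.03, and Tfeb one of 0.44 (26.1 CPM in KO cells and 19.3 CPM in WT cells).

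Other lysosomal genes were read from 6 further lists of 97 genes found. Of 38 other hydrolases and cofactors, 36 were measured in monocytes, with 2 lower and 1 higher, 37 in macrophages with 2 lower and 1 higher, and 31 in Inhba phagocytes with 3 lower and 2 higher. Of all genes, 4.5% were lower and 6.29% higher in monocytes, 6.85% and 7.52% in macrophages and 4.14% and 10.5% in Inhba phagocytes. The summed level of the list was 7134 CPM in KO macrophages and 6451 CPM in WT macrophages, 4825 and 4576 CPM in Inhba phagocytes, and 8029 and 8328 CPM in monocytes. The sum is weighted to abundant genes, and most genes of the list lay below their WT level in macrophages, with 12 of 37 above 0. The list's median log2 ratio was -0.20 in macrophages, -0.02 in Inhba phagocytes and -0.14 in monocytes. The medians over all genes were -0.01, 0.07 and 0.07. Lipa, the acid lipase that frees fatty acids and cholesterol from lipoproteins and lipid droplets, was lower in all 3, with 154 CPM in KO cells and 241 CPM in WT cells in macrophages (-0.64, -0.69 to -0.60), 61.5 CPM in KO cells and 96.8 CPM in WT cells in monocytes (-0.66, -0.78 to -0.53) and 67.5 CPM in KO cells and 124 CPM in WT cells in Inhba phagocytes (-0.87, -1.08 to -0.66). Gla, alpha-galactosidase, was lower in monocytes (56.8 CPM in KO cells and 94.4 CPM in WT cells, -0.73). Higher were Ctse, cathepsin E, in macrophages (5.68 against 2.16 CPM, 1.39), Manba, beta-mannosidase, in Inhba phagocytes (16.6 against 6.49 CPM, 1.35, 117 and 16 UMIs) and Arsb, arylsulfatase B, in monocytes (0.59) and Inhba phagocytes (0.94). Of 20 other membrane proteins and channels, 1 was lower in monocytes (Laptm4b, 2.61 against 5.87 CPM in the KO and WT libraries), none in macrophages and 1 in Inhba phagocytes, and none was higher in these classes. Of 12 other V-ATPase genes, none of the 6 measured in monocytes and none of the 5 measured in Inhba phagocytes passed 1.5-fold, and of the 7 measured in macrophages Atp6v0e2 was lower, at 0.469 against 0.928 CPM. The summed level of these 12 was 878 CPM in KO and 1073 CPM in WT monocytes (-0.29, -0.33 to -0.25). It was 1021 and 1253 CPM in Inhba phagocytes (-0.29) and 988 and 1094 CPM in macrophages (-0.15).

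Among 13 genes of TFEB regulation, Tfec stood out and 12 others did not pass 1.5-fold in macrophages. Tfec, the relative of Tfeb that is largely restricted to macrophages, was higher in KO monocytes with 107 CPM in KO cells and 40.3 CPM in WT cells (1.41, 1.25 to 1.57), in macrophages with 57.6 CPM in KO cells and 25.2 CPM in WT cells (1.19, 1.10 to 1.28) and in Inhba phagocytes with 60.6 CPM in KO cells and 30.4 CPM in WT cells (0.99, 0.64 to 1.37). It was also higher in non-classical monocytes, at 61.6 CPM in KO cells and 17.4 CPM in WT cells (1.83), and in other phagocytes (0.71). Mitf had 467 CPM in KO cells and 344 CPM in WT cells in macrophages (0.44), within 1.5-fold. Among 6 sorting genes, all measured in macrophages, Sorl1 was higher in macrophages (29.8 CPM in KO cells and 13.6 CPM in WT cells, 1.13) and Sort1, sortilin, was lower (9.85 CPM in KO cells and 15.4 CPM in WT cells, -0.64), as it was in Inhba phagocytes (-1.08). Of 9 listed cathepsin inhibitors, 4 were measured in macrophages with 1 lower, Cst6, at under 3 CPM in either library.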

How the data were processed

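Living CD45+ cells of B16-F10 tumours were measured in 1 droplet library per group. The files deposited by the authors hold raw UMI counts for 32285 genes in every barcode. They come from Cell Ranger 7.2.0, per the file headers, with mm10 as the build, per the submitters' processing notes. The annotation and the alignment settings: not given in the sources used here.

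Cells were called per library. Barcodes above a UMI threshold (9265 in the KO library, 16615 in the WT library) were cells, and barcodes of at least 500 UMIs were tested against free RNA (the profile of barcodes with 100 UMIs or fewer) by 10000 random draws, keeping an adjusted p of at most 0.01. Cells needed at least 250 genes and at most 10% mitochondrial UMIs. Scrublet in scanpy 1.11.5 marked 371 KO and 179 WT doublets (3.28% and 1.94%), and these were removed. A rule of 0.8% for each 1000 cells would give 9.06% and 7.4%, so some doublets may remain. Calling and ratio intervals were tested on simulated data.

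Classes came from fixed marker gates. The gates as first written put lymphocytes into the monocyte gate and macrophages into the cDC1 gate, so they were narrowed after the cell numbers per gate were seen. Cells matching several lineages or no gate were left out. For each class, the UMIs of its cells were added up within a library and set against the class total, which gives CPM. The free RNA estimate came from C1q and melanoma genes in CD8 T cells. With 1 library per group no p-value was computed.

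The members and gene lists were chosen with earlier results of these data known. Members are named in full where they had at least 50 UMIs and 1.5-fold, at most 10 each way in the 4 largest classes and 4 in the others, and those with at least 25% free RNA only with that share. Positions are from GENCODE on mm10 and promoter sequences from RefSeq (GRCm38.p6).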

Additional observations from a re-analysis of the deposited data

Results flagged for a closer look

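A V0 subunit gene, Atp6v0a1, had ratios of opposite sign in phagocytes and CD8 T cells, and the difference between the classes was not tested. Its log2 ratio of KO over WT was 1.09 in neutrophils, 1.001 in cDC1, 0.75 in monocytes, 0.72 in non-classical monocytes and 0.59 in Inhba phagocytes, against -0.69 in CD8 T cells. The CD8 T value was 0.0762 with doublets kept, and free RNA made up an estimated 84.3% and 43.5% of its KO and WT UMIs. Atp6v0d2 had 1.40 in other phagocytes, from 44 and 12 UMIs, and -0.73 in monocytes, also untested.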

How the results depend on the processing

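With the alternatives tried, apart from the weighting of macrophage subgates, which bears on 1 called ratio and kept it, 44 to 49 of the 49 member ratios called could be computed again and 32 to 49 of them kept a difference of at least 1.5-fold, the fewest (32 of 49) with 1 UMI more per gate marker, against 35 of 45 where the free RNA test was left out and cells lay above the UMI threshold alone. The members' median stayed below that of all genes in 8 or 9 of the 10 classes. In monocytes 6 to 8 members were lower and the Ctsl ratio ranged from -1.42 to -1.11. In macrophages the count higher, 0 as reported, was 1 with only barcodes above the UMI threshold, at most 5% mitochondrial UMIs, doublets kept, free RNA subtracted, ratios centred on all genes or 1 UMI more per gate marker. The count lower, 1 as reported, was 0 with at most 5% mitochondrial UMIs, doublets kept or 1 UMI more per gate marker, and 2 with each cell counted alike or subgates weighted alike. With subgates weighted alike, Ctsl passed the limit along with Ctsk. In Inhba phagocytes 7 were lower with only barcodes above the threshold, in place of 4. That threshold differed between the libraries (9265 UMIs in KO, 16615 in WT). It left 358 KO and 36 WT Inhba phagocytes, and 119 KO and 18 WT NK cells. Inhba phagocytes had 0 members higher, in place of 1, with at least 1000 UMIs, at most 5% mitochondrial UMIs, centred ratios, 1 UMI more per gate marker or the gates as first written. In CD8 T cells 2 were lower with doublets kept, in place of 7, and 1 was higher with a minimum of 10 UMIs. The direction reversed for the NK median (0.43 above the threshold, 0.0701 with doublets kept, 0.13 with free RNA subtracted), the neutrophil median (-0.012, doublets kept), Ctsd in mature dendritic cells (0.0402, stricter gates), Npc1 in cDC1 (-0.11, gates as first written, chosen as an alternative after seeing the data), Npc2 and Atp6v1h in other phagocytes (0.0714 and 0.0504, above the threshold) and Atp6v0a1 in CD8 T cells (0.0762, doublets kept). The cause was not tested. No paired analysis was possible because each group has 1 library.

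Depth limits members of few UMIs, of which 19 of the class values fell under 50. Intervals cover counting error only, not differences between tumours, and a few cells can hold most of a member's UMIs.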
